A study of Homo sapiens with 24 samples.

Results

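The 40 genes described here encode the enzymes and transporters of glycolysis and the genes through which cells sense and answer low oxygen. They were chosen by symbol from what the genes are known to do and make up 40 of the 60366 entries of the count table. RNA was sequenced from BXPC3, MIAPACA2 and PSN1, established human pancreatic adenocarcinoma cell lines that the submitters describe as lacking MTAP, while the genotype label of every library reads WT. Each line was given the PRMT5 inhibitor AM-9747 or DMSO vehicle and was collected at day 6, giving 6 groups of 4 libraries, a total of 24. The dose was 100 nM in BXPC3 and PSN1 and 150 nM in MIAPACA2, so for MIAPACA2 the effects of line and dose cannot be told apart. All groups grew in serum-containing medium in ordinary culture, and the labels name no low-oxygen treatment. The study asked how gene expression in such lines responds to the inhibitor. Whether replicates came from separate cultures is not in the labels, and the p-values therefore reflect the spread of these libraries, which may be technical. These are bulk libraries, in which fewer cells with a transcript and less of it per cell cannot be told apart.

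Glycolysis turns glucose into pyruvate through a fixed chain of enzymes, several of which exist as isozymes from separate genes. Pyruvate is either passed to the mitochondria or reduced to lactate, which leaves the cell with a proton through monocarboxylate transporters. With oxygen present, prolyl hydroxylases mark the alpha subunits HIF1A and EPAS1 for destruction through VHL; when oxygen is low the subunits persist, pair with ARNT and bind short DNA words with the core ACGTG or GCGTG beside their targets. Pancreatic tumours are known for poor oxygen supply and high glucose use. PRMT5 is an arginine methyltransferase that acts on spliceosomal and histone proteins, and loss of MTAP leaves it partly inhibited by methylthioadenosine.

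The core words were looked for in promoter windows, since a reader will want to see the sites that connect the genes of this group. RefSeq windows (GRCh38.p14) matched 36 of the 40 genes by symbol, with 64 listed starts, and the 250 bases before each start were searched on both strands. ACGTG occurred in 24 of the 64 windows (37.5%), against 18.5% of the 35116 windows of all genes. GCGTG occurred in 21 windows (32.8%), against 32.2% of all windows. Either word occurred in 39 windows (60.9%), against 43.2% of all windows, and the word CACGTG holds ACGTG on both strands. Windows of 1 gene can share bases. A match is a description of letters and shows no binding. Among members called in at least 1 line, P4HA2, EGLN3 and PGAM1 had 0 matches in their listed window. SLC16A1 and BNIP3L had no window, and the other called members had at least 1 match in a window. For a gene with several starts, the window shown has the most matches among those nearly free of annotated exons. The windows below belong to 5 genes, picked by name, that changed in at least 1 line. Those of SLC16A3 and PFKL are shown because these genes fell, and those of HK2, ANGPTL4 and EPAS1 because these rose. Each runs 5′ to 3′ along its gene, ends at the base before the start, overlaps annotated exons by at most 10 bases and has the matched words in capitals. The SLC16A3 window (chr17:82228792-82229041, plus strand, 1 of 5 listed starts) has 2 matches, 55 and 68 bases before the start. The HK2 window (chr2:74834920-74835169, plus strand, 1 of 2 starts) has 6, with each CACGTG word counted once on each strand. PFKL (chr21:44299803-44300052, plus strand), ANGPTL4 (chr19:8363905-8364154, plus strand) and EPAS1 (chr2:46297157-46297406, plus strand) have 1 match each.
SLC16A3: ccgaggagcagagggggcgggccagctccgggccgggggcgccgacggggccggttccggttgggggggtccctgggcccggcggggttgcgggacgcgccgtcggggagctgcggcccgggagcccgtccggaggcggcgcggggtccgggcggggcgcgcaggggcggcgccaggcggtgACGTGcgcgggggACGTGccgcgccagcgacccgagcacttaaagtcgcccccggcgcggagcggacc
PFKL: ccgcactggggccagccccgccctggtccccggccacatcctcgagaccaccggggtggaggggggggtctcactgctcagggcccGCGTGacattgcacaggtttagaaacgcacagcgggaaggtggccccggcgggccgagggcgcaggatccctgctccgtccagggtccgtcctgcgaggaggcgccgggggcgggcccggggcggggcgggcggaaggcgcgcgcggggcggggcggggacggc
HK2: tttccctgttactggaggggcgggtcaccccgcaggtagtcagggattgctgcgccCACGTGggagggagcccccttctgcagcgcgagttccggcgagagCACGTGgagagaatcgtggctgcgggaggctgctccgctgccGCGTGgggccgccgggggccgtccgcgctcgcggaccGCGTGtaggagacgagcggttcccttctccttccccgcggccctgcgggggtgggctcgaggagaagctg
ANGPTL4: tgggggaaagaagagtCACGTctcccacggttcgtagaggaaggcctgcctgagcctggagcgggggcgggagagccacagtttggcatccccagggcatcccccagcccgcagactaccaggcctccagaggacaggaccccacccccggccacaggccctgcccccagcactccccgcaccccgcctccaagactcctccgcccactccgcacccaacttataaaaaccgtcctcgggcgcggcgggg
EPAS1: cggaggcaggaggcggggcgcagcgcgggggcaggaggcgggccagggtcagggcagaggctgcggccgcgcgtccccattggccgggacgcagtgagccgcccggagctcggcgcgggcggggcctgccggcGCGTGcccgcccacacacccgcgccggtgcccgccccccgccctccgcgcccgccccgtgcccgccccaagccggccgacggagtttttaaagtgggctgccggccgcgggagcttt

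Levels below are CPM, that is counts scaled to 1e6 per library after TMM scaling (a correction for libraries in which a few genes take much of the counts), and groups are given as mean ± SD of 4 libraries. Total counts ran from 22.4 to 45.6 M, and intervals from such depth cover counting error only. A fold change sets AM-9747 against vehicle, and a log2 value is followed by ± its SE. A gene was called when its p from edgeR's quasi-likelihood test, adjusted by Benjamini-Hochberg over all genes tested, was below 0.05. The SE is approximate, being the absolute log2 value divided by the square root of that test's F statistic. MTAP was at 0.276 to 2.67 CPM in the 6 group means and PRMT5 at 44.6 to 136. The epithelial markers EPCAM and CDH1 averaged 115 and 581 CPM in vehicle libraries of BXPC3 but 0.0431 and 0.13 in those of MIAPACA2. VIM, a filament protein of mesenchymal cells, stood at 8852 in MIAPACA2 vehicle. In PSN1 vehicle EPCAM was at 9.06, CDH1 at 0.625 and VIM at 1252. The epithelial keratins KRT8 and KRT18 were at 2508 and 1875 CPM in BXPC3 vehicle. They were at 681 and 730 in MIAPACA2 vehicle and at 419 and 965 in PSN1 vehicle. KRT19 was at 1726, 23.7 and 168 CPM in BXPC3, MIAPACA2 and PSN1 vehicle. The leukocyte marker PTPRC did not exceed a group mean of 0.163 CPM. Of the other leukocyte markers, CD68 was highest in BXPC3 vehicle, at 31.8 CPM, and CD3E in treated BXPC3, at 1.55. The endothelial marker PECAM1 was highest in PSN1 vehicle, at 36.0 CPM. CDH5 and VWF, also endothelial markers, were highest in treated BXPC3, at 24.1 and 4.94 CPM. In BXPC3, counts from the mitochondrial genome took 7.26 ± 1.15% of vehicle and 7.33 ± 2.60% of treated libraries, and they took a mean of 13.6% in both MIAPACA2 groups. In PSN1 they took 33.1 ± 11.3% in vehicle (17.4, 43.8, 37.6 and 33.5% in replicates 1 to 4) and 20.0 ± 10.8% with AM-9747 (7.98, 14.1, 26.8 and 31.1%).

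In vehicle all 3 lines had GAPDH, PKM, ALDOA and ENO1 among their abundant members, whereas LDHB, CA9, CA12, EPAS1 and SLC2A3 were abundant in at least 1 line and at a group mean of 1.15 CPM or lower in another. Between BXPC3 and MIAPACA2 vehicle libraries 29 of 39 members tested were called, 10 higher and 19 lower in MIAPACA2, beside 65.0% of all genes (31.1% higher, 33.9% lower). Between BXPC3 and PSN1 the count was 27 of 40, 10 higher and 17 lower in PSN1, beside 59.0% (28.9% higher, 30.2% lower). Between MIAPACA2 and PSN1 it was 25 of 39, 14 higher and 11 lower in PSN1, beside 47.3% (25.3% higher, 21.9% lower). The share of members called was above the background in each pair (74.4, 67.5 and 64.1%). BXPC3 had the highest mean for 20 of the 40 members, in 11 of which it differed from the next line; the corresponding counts were 11 and 6 for MIAPACA2 and 9 and 8 for PSN1. Of the 38 members tested in every pair, 12 differed in all 3 pairs, beside 20.8% of all genes: SLC2A3, HK2, PFKL, PFKFB4, ALDOC, ENO2, SLC16A3, CA9, CA12, EPAS1, EGLN3 and NDRG1. GPI, EGLN1 and KDM3A differed in 0 pairs.

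**Figure D1:**
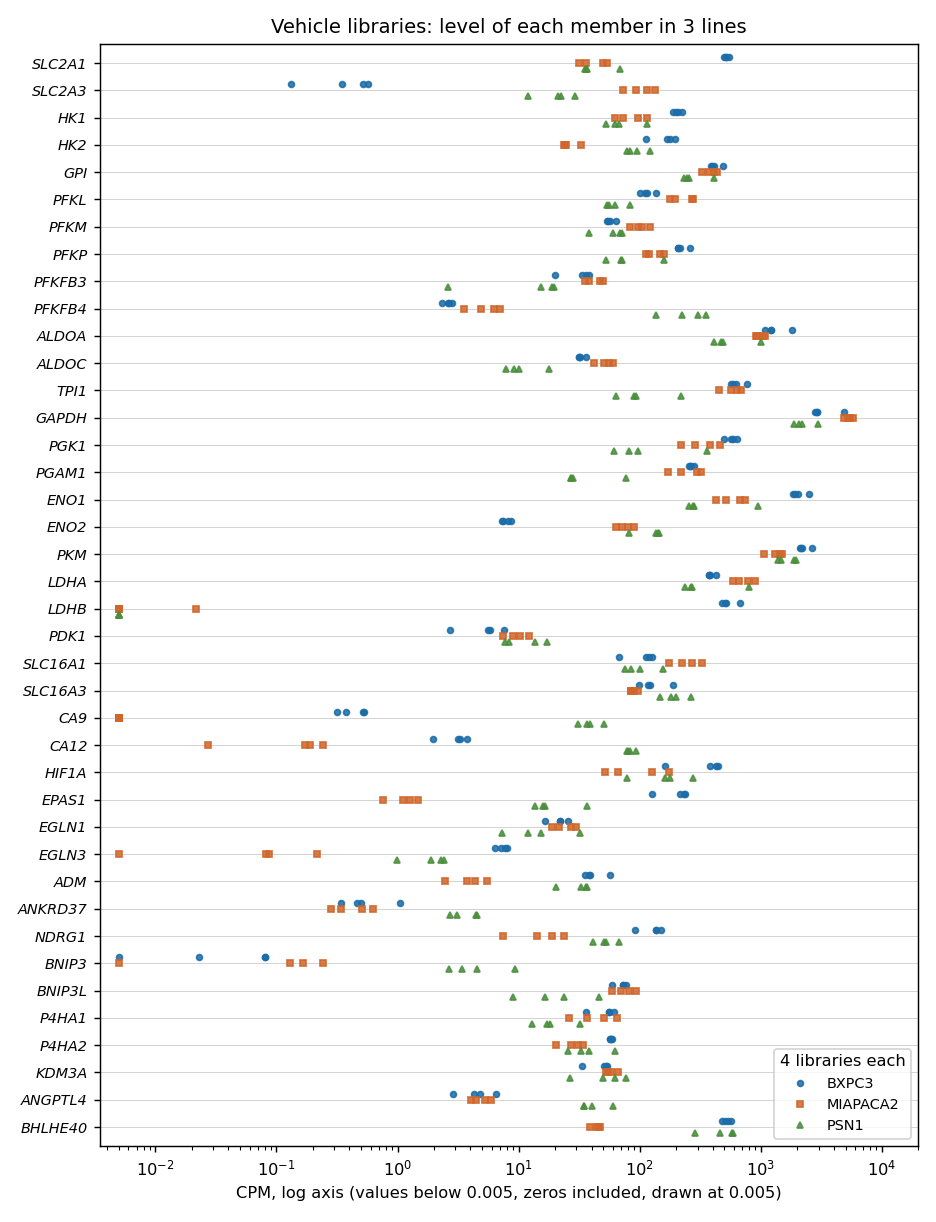
Level of each of the 40 genes in the vehicle libraries of the 3 lines, in CPM on a log axis, 1 point per library (4 per line). LDHB sits between 480 and 666 CPM in BXPC3 and at or near 0 in the other lines, while CA9, CA12 and PFKFB4 are highest in PSN1.

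With AM-9747, 6 to 8 members were called in a line. SLC16A3, the lactate exporter, fell in every line. PFKL, a phosphofructokinase, was called lower in BXPC3 and MIAPACA2, and HK2, a hexokinase, higher in MIAPACA2 and PSN1. Members of the hypoxia response were called in both directions: EGLN3, ANKRD37 and KDM3A rose and BNIP3L fell in BXPC3, P4HA2 rose in MIAPACA2, and in PSN1 ADM, ANGPTL4 and EPAS1 rose while CA12 fell. Among these, ADM and ANGPTL4 had responses that differed between the lines by the test of that difference, and the others did not pass it. The remaining calls were ALDOC higher and SLC16A1 lower in MIAPACA2, and PGAM1 higher and ENO2 lower in PSN1. In BXPC3, 6 of 39 members tested were called, 3 higher and 3 lower, beside 29.2% of all genes (13.2% higher, 16.0% lower). In MIAPACA2, 6 of 35 were called, 3 higher and 3 lower, beside 13.6% (6.73% higher, 6.84% lower). In PSN1, 8 of 39 were called, 5 higher and 3 lower, beside 10.7% (4.52% higher, 6.17% lower). The called members were 15.4% of those tested in BXPC3, against 17.1% for MIAPACA2 and 20.5% for PSN1, but the counts moved with single libraries. Without 1 library the count in PSN1 was 1 (vehicle replicate 4 or AM-9747 replicate 2), 3 (vehicle replicate 2 or AM-9747 replicate 1, 3 or 4), 5 (vehicle replicate 3) or 19 (vehicle replicate 1). In MIAPACA2 it was 3 without AM-9747 replicate 1 and 11 without AM-9747 replicate 3, and in BXPC3 it was 3 without vehicle replicate 1 or AM-9747 replicate 2 or 3. The median member stood at log2 -0.09 in BXPC3, -0.28 in MIAPACA2 and 0.45 in PSN1, against 0.00, -0.00 and 0.03 over all genes tested. With the log2 mitochondrial share as a covariate, the median member stood at -0.08 in BXPC3, -0.19 in MIAPACA2 and 0.12 in PSN1.

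The 2 groups did not overlap for 8 of 39 members in BXPC3, beside 32.2% of all genes, for 9 of 35 in MIAPACA2, beside 20.9%, and for 9 of 39 in PSN1, beside 21.4%. Over the mean of the 3 lines, from a joint fit of all 24 libraries, 11 of 40 members were called, beside 23.3% of 22883 genes. HK2, ALDOC, EPAS1, ADM, ANKRD37, P4HA2 and KDM3A were higher (12.6% of all genes) and PFKL, PKM, SLC16A3 and BHLHE40 lower (10.7%). The responses differed between the lines for 4 members, PGAM1, ENO2, ADM and ANGPTL4, beside 12.1% of all genes. The joint fit behind these calls and those of the mean shares its spread over the lines, which understates that of PSN1. SLC16A3 was the single member called with the same sign in all 3 lines, where 1.16% of 14476 genes fell in every line and 0.718% rose.

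**Figure D2:**
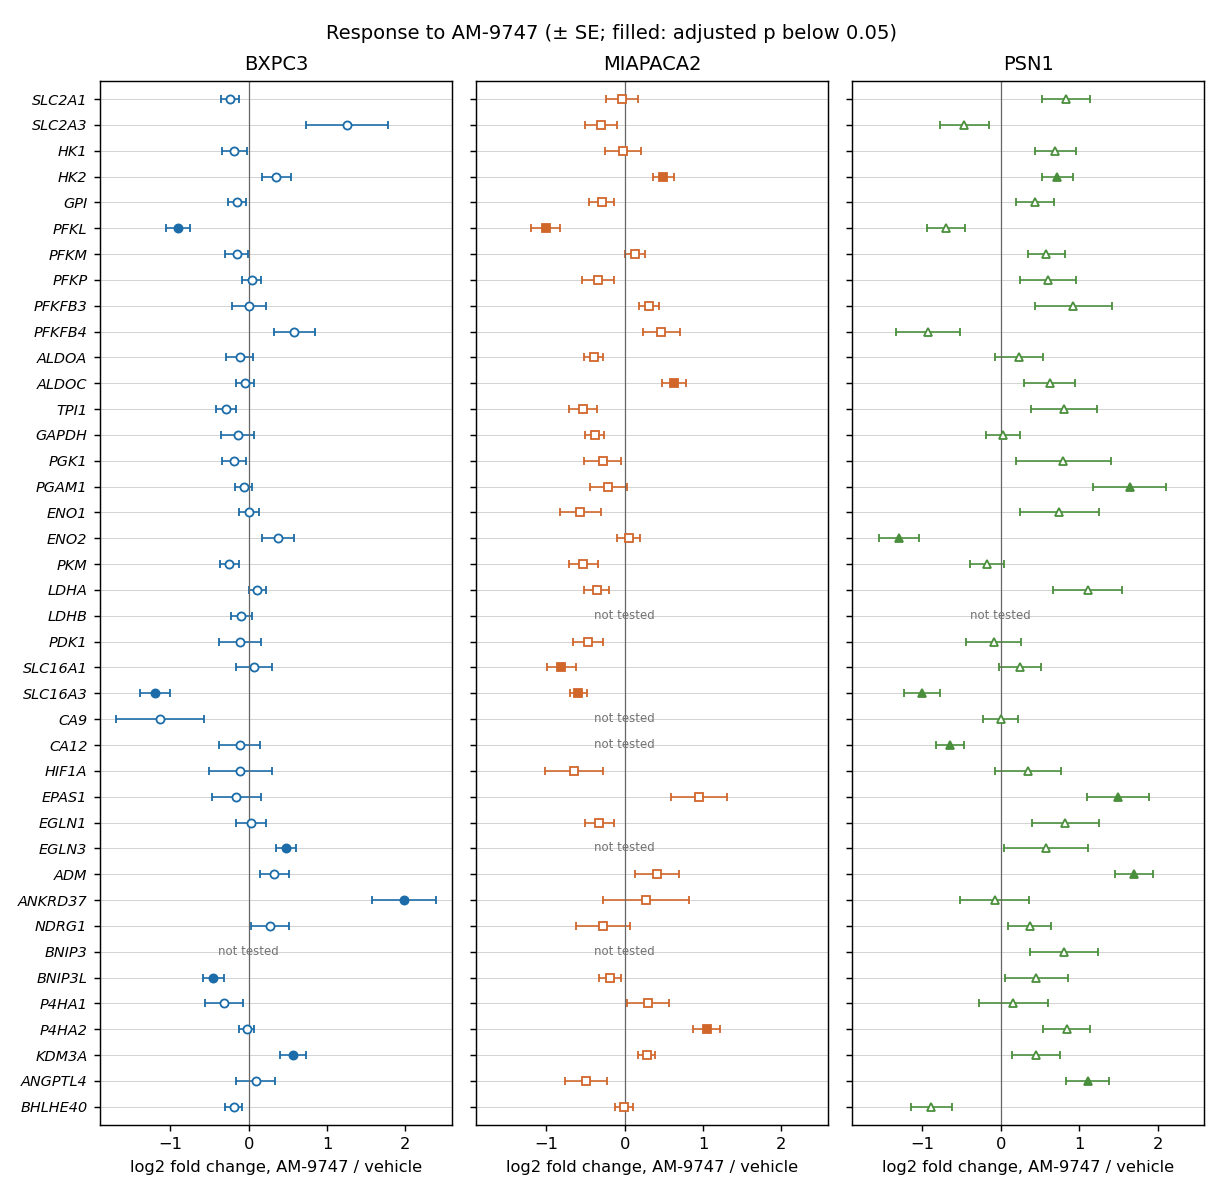
Log2 fold change of each gene, AM-9747 over vehicle, with its SE, in the 3 lines; filled symbols have an adjusted p below 0.05. SLC16A3 is filled and left of 0 in every panel, most BXPC3 symbols lie near 0, and the PSN1 symbols have the widest errors.

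Of the transcripts of 2 glucose transporters, SLC2A1 was the larger part in BXPC3 and PSN1 and SLC2A3 in MIAPACA2. SLC2A1 (ENSG00000117394, GRCh38 chromosome 1, 42925375 to 42959176, minus strand) encodes GLUT1, the basal glucose transporter. In BXPC3 it was at 549, 500, 514 and 512 CPM in vehicle and 494, 462, 414 and 388 with AM-9747. MIAPACA2 libraries held 36.3, 53.3, 49.3 and 31.7 CPM in vehicle and 36.5, 33.6, 55.7 and 37.6 with AM-9747, and PSN1 libraries 69.2, 35.8, 37.0 and 35.5, then 130, 77.6, 54.8 and 62.8. Every BXPC3 library thus lay above every library of the other lines, and vehicle BXPC3 exceeded MIAPACA2 by 3.63 ± 0.18 on the log2 scale (adjusted p 6.49e-08) and PSN1 by 3.47 ± 0.25 (4.88e-06). The response to AM-9747 did not pass in BXPC3 (log2 -0.24 ± 0.11, adjusted p 0.133, although the groups did not overlap), MIAPACA2 (-0.03 ± 0.20, 0.935) or PSN1 (0.83 ± 0.31, 0.108). SLC2A3, which encodes the high-affinity transporter GLUT3, ran the other way across lines, at 0.394 ± 0.198 CPM in BXPC3, 104 ± 26.7 in MIAPACA2 and 21.2 ± 7.13 in PSN1 vehicle. Per kb of exon, SLC2A3 made up 0.0576 ± 0.0282% of the 2 transporters' summed level in BXPC3 vehicle, 65.0 ± 1.26% in MIAPACA2 and 27.0 ± 6.04% in PSN1. With AM-9747 its share was 13.3 ± 1.78% in PSN1 (12.0 to 15.7%, all below the vehicle range of 19.7 to 32.6%) and 60.8 ± 0.871% in MIAPACA2.

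HK2 (ENSG00000159399, chromosome 2, 74833981 to 74893359, plus strand) encodes the inducible hexokinase that traps glucose in the cell and can sit on the mitochondrial membrane. Its MIAPACA2 vehicle libraries held 23.8, 32.9, 24.2 and 24.7 CPM and its AM-9747 libraries 36.4, 36.5, 38.0 and 34.7. In PSN1 it was at 121, 95.8, 83.6 and 79.0 CPM in vehicle and at 178, 146, 142 and 177 with AM-9747. BXPC3 libraries held 194, 177, 169 and 113 CPM in vehicle and 258, 215, 184 and 177 with AM-9747. All treated libraries lay above all vehicle libraries in MIAPACA2 and PSN1, whereas the groups overlapped in BXPC3. HK2 rose 1.41-fold in MIAPACA2 (log2 0.49 ± 0.13, adjusted p 0.0353) and 1.65-fold in PSN1 (0.72 ± 0.20, 0.0438), stood at 0.35 ± 0.18 in BXPC3 (0.175), and rose over the mean of the lines (0.53 ± 0.10, 0.000588). The call was lost in MIAPACA2 without vehicle replicate 1, 3 or 4 or AM-9747 replicate 1, 2 or 4 (log2 0.44 to 0.60 over the 8 fits that left out a library, adjusted p up to 0.114), and in PSN1 without any library but vehicle replicate 1 (0.66 to 0.84, up to 0.136); the mean response held in all 24 such fits. It was lost with no low-count filter in MIAPACA2 (0.0642) and PSN1 (0.0809), in the joint fit in MIAPACA2 (0.156), and with the mitochondrial share as a covariate in PSN1 (0.0674). HK1, the constitutive hexokinase, was at 204 ± 15.5, 86.7 ± 23.6 and 74.1 ± 27.2 CPM in BXPC3, MIAPACA2 and PSN1 vehicle and did not pass in any line. The HK2 share of the 2 hexokinases, per kb, was 45.0 ± 4.38% in BXPC3 vehicle and 54.9 ± 2.28% with AM-9747, with no overlap (38.5 to 47.4% and 51.8 to 57.3%), but 57.8 ± 4.19% and 57.9 ± 4.40% in PSN1. GPI, which isomerises glucose 6-phosphate, passed in no line.

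PFKL (ENSG00000141959, chromosome 21, 44300051 to 44327376, plus strand) encodes the liver-type subunit of phosphofructokinase, which commits sugar to glycolysis. It was at 112, 101, 115 and 137 CPM in BXPC3 vehicle and at 69.4, 70.3, 61.2 and 46.6 with AM-9747. MIAPACA2 vehicle libraries held 195, 268, 274 and 179 CPM, and treated libraries 107, 95.9, 147 and 97.0. PSN1 vehicle libraries held 55.3, 53.5, 83.2 and 62.2 CPM, and treated libraries 42.5, 42.5, 48.7 and 28.3. In each line every treated library was below every vehicle library. PFKL fell 1.87-fold in BXPC3 (log2 -0.91 ± 0.15, adjusted p 0.00212) and 2.01-fold in MIAPACA2 (-1.01 ± 0.19, 0.00616), and both calls held in each fit without 1 library and in each other setting. PSN1 gave log2 -0.70 ± 0.24, which did not pass (0.0871), and the difference between lines did not pass either (0.597). Over the mean of the lines PFKL fell by 0.86 ± 0.12 on the log2 scale (8.38e-06).

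PFKM (muscle type) and PFKP (platelet type) passed in no line. In BXPC3 PFKP stayed the main form, at 222 ± 24.4 CPM in the vehicle and 227 ± 25.4 in the treated libraries. Per kb PFKP had the largest mean share in every group, but in MIAPACA2 vehicle that share was 41.4 ± 1.04%, close to that of PFKL. In CPM PFKL had the higher mean in MIAPACA2 vehicle. The PFKL share of the 3 subunit genes, per kb, was 19.5 ± 0.983% in BXPC3 vehicle and 11.3 ± 1.25% with AM-9747, and 38.0 ± 1.94% and 25.5 ± 0.994% in MIAPACA2, without overlap in either line. In PSN1 the share was 23.2 ± 9.98% and 10.2 ± 2.38%, with ranges of 12.7 to 36.7% and 7.65 to 13.2% that overlapped. PFKFB3 and PFKFB4 make and remove fructose 2,6-bisphosphate, the activator of phosphofructokinase. PFKFB4 was at 254 ± 94.1 CPM in PSN1 vehicle, against 2.61 ± 0.215 in BXPC3 and 5.43 ± 1.54 in MIAPACA2, a log2 difference of 6.70 ± 0.37 from BXPC3 (adjusted p 9.53e-07). With AM-9747 PFKFB4 was at 138 ± 69.3 CPM in PSN1 (log2 -0.93 ± 0.41, 0.165) and PFKFB3 at 27.7 ± 7.14 against 14.1 ± 7.91 in vehicle (0.93 ± 0.49, 0.245), so neither change passed.

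The 9 genes of lower glycolysis, from aldolase to pyruvate kinase, summed to 10546 ± 1891 CPM in BXPC3 vehicle, 9522 ± 440 in MIAPACA2 and 5425 ± 1512 in PSN1. Per kb of exon GAPDH was the highest member in the vehicle libraries of every line, at 1134 ± 335 in BXPC3, 1781 ± 126 in MIAPACA2 and 764 ± 166 in PSN1. With AM-9747, 0 of the 9 passed in BXPC3 by edgeR and 0 by DESeq2 (1 at an unadjusted p below 0.05), ALDOC passed in MIAPACA2, and PGAM1 and ENO2 passed in PSN1. In MIAPACA2 the sum was 7074 ± 833 CPM with AM-9747, and its 4 treated libraries (6163 to 8007) all lay below the 4 vehicle libraries (8884 to 9839). There 7 of the 9 genes had a negative log2 value, among them GAPDH (-0.39 ± 0.12, adjusted p 0.0512) and ALDOA (-0.39 ± 0.12, 0.057), which did not pass.

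PKM (ENSG00000067225, chromosome 15, 72199029 to 72231822, minus strand) encodes pyruvate kinase, the last step of the chain. BXPC3 libraries held 2167, 2093, 2135 and 2619 CPM in vehicle and 1967, 2050, 1845 and 1720 with AM-9747, so the groups did not overlap. MIAPACA2 had 1315, 1508, 1436 and 1062 in vehicle and 788, 708, 1212 and 917 with AM-9747, and PSN1 1960, 1480, 1876 and 1377, then 1905, 1349, 1413 and 1426. PKM passed in no line on its own (log2 -0.25 ± 0.12, -0.53 ± 0.18 and -0.18 ± 0.22; adjusted p 0.152, 0.0765 and 0.631) but fell over their mean (-0.31 ± 0.11, 0.0354). That call was lost in 10 of the 24 fits without 1 library: BXPC3 vehicle replicate 4 and AM-9747 replicates 3 and 4, MIAPACA2 vehicle replicates 1, 2 and 3 and AM-9747 replicates 1, 2 and 4, and PSN1 AM-9747 replicate 2 (log2 -0.37 to -0.28, adjusted p up to 0.0714). It was also lost without scaling (-0.15, 0.408) and with no filter (0.0587).

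ALDOC (ENSG00000109107, chromosome 17, 28573115 to 28577264, minus strand) encodes the brain-type aldolase. In MIAPACA2 it was at 50.5, 59.9, 56.0 and 41.7 CPM in vehicle and at 79.7, 67.4, 98.2 and 71.2 with AM-9747, with no overlap. BXPC3 held 31.7, 32.2, 31.5 and 36.2 CPM, then 28.9, 34.0, 30.9 and 33.2, and PSN1 17.7, 9.18, 7.83 and 10.1, then 23.9, 20.0, 15.1 and 11.9; the groups overlapped in both. ALDOC rose 1.55-fold in MIAPACA2 (log2 0.63 ± 0.16, adjusted p 0.0228) and over the mean of the lines (0.40 ± 0.13, 0.0254), while BXPC3 (-0.05 ± 0.11, 0.779) and PSN1 (0.62 ± 0.32, 0.234) did not pass. The MIAPACA2 call was lost without vehicle replicate 1 or 3 or AM-9747 replicate 1 (log2 0.51 to 0.69, up to 0.0697) and in the joint fit (0.129); that of the mean was lost without MIAPACA2 vehicle replicate 4, MIAPACA2 AM-9747 replicate 3 or PSN1 AM-9747 replicate 1 (up to 0.056) and with no filter (0.0584). The ALDOC share of the 2 aldolases, per kb, was 6.56 ± 1.06% in MIAPACA2 vehicle (5.62 to 8.06%) and 12.4 ± 0.936% with AM-9747 (11.2 to 13.5%).

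ENO2 (ENSG00000111674, chromosome 12, 6913745 to 6923698, plus strand) encodes the neuronal enolase. PSN1 vehicle libraries held 81.1, 136, 142 and 145 CPM and treated libraries 44.6, 49.1, 63.7 and 55.8, all below vehicle. BXPC3 libraries held 8.16, 7.28, 8.72 and 7.37, then 7.32, 9.01, 10.6 and 13.8, and MIAPACA2 libraries 80.2, 63.9, 71.8 and 89.0, then 74.7, 94.1, 66.1 and 75.4, with overlap in both. ENO2 fell 2.45-fold in PSN1 (log2 -1.29 ± 0.25, adjusted p 0.0121), while BXPC3 gave 0.37 ± 0.20 (0.195) and MIAPACA2 0.05 ± 0.15 (0.862), and the responses differed between lines (0.00132). The PSN1 call was lost without vehicle replicate 4 or AM-9747 replicate 2 (log2 -1.47 to -1.20 over the 8 fits, adjusted p up to 0.0579). ENO1, the ubiquitous enolase, was at 439 ± 339 and 751 ± 499 CPM in the same PSN1 groups (log2 0.75 ± 0.50, 0.355). PGAM1, phosphoglycerate mutase, which the rule for full values left out and which is named for its call, was at 39.9 ± 24.8 CPM in PSN1 vehicle and 128 ± 81.6 with AM-9747 (log2 1.64 ± 0.47, 0.0473; difference between lines 0.0212), with overlapping groups. Its call was lost without PSN1 vehicle replicate 2, 3 or 4 or AM-9747 replicate 1, 2 or 4 (log2 1.16 to 2.14, adjusted p up to 0.135), was 0.0526 without scaling, and its log2 value was 0.76 with the mitochondrial share as a covariate. Its 13 named pseudogenes held 1.80% of the summed level.

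SLC16A3 (ENSG00000141526, chromosome 17, 82228397 to 82261129, plus strand) encodes MCT4, the low-affinity monocarboxylate transporter that exports lactate from glycolytic cells. BXPC3 libraries held 121, 99.2, 116 and 188 CPM in vehicle and 52.0, 59.3, 62.0 and 55.4 with AM-9747. MIAPACA2 libraries held 85.3, 84.8, 89.1 and 96.4 CPM in vehicle and 58.8, 56.7, 54.1 and 62.2 with AM-9747. PSN1 libraries held 264, 146, 199 and 182 CPM in vehicle and 123, 113, 89.9 and 80.1 with AM-9747. In each line all 4 treated libraries lay below all 4 vehicle libraries. SLC16A3 fell 2.28-fold in BXPC3 (log2 -1.19 ± 0.19, adjusted p 0.00155), 1.51-fold in MIAPACA2 (-0.59 ± 0.11, 0.00556) and 2.0-fold in PSN1 (-1.0 ± 0.23, 0.0218), and the difference between lines did not pass (0.284). The mean response was log2 -0.93 ± 0.11 (1.35e-06).

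The BXPC3 and MIAPACA2 calls of SLC16A3 held in each fit without 1 library, though MIAPACA2 did not pass in the joint fit (0.062). The PSN1 call was lost without vehicle replicate 4 or AM-9747 replicate 2, 3 or 4 (log2 -1.10 to -0.86, adjusted p up to 0.0849) and without scaling (-0.66, 0.18); with the mitochondrial share as a covariate it was -1.28 (0.00332). CSNK1D, a casein kinase gene on the other strand, covers 5.36% of the SLC16A3 exon bases, and the strand setting of the counting is not given in the sources used here. CSNK1D stood at 147 ± 16.5 and 145 ± 8.93 CPM in BXPC3 (log2 -0.02, adjusted p 0.931) but fell in MIAPACA2, where it was at 182 ± 12.4 in vehicle and 129 ± 10.7 with AM-9747 (-0.47, 0.0182), and in PSN1, where it was at 401 ± 91.9 and 189 ± 42.7 (-1.14, 0.0214). Its part in the SLC16A3 values of MIAPACA2 and PSN1 was not tested.

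**Figure D3:**
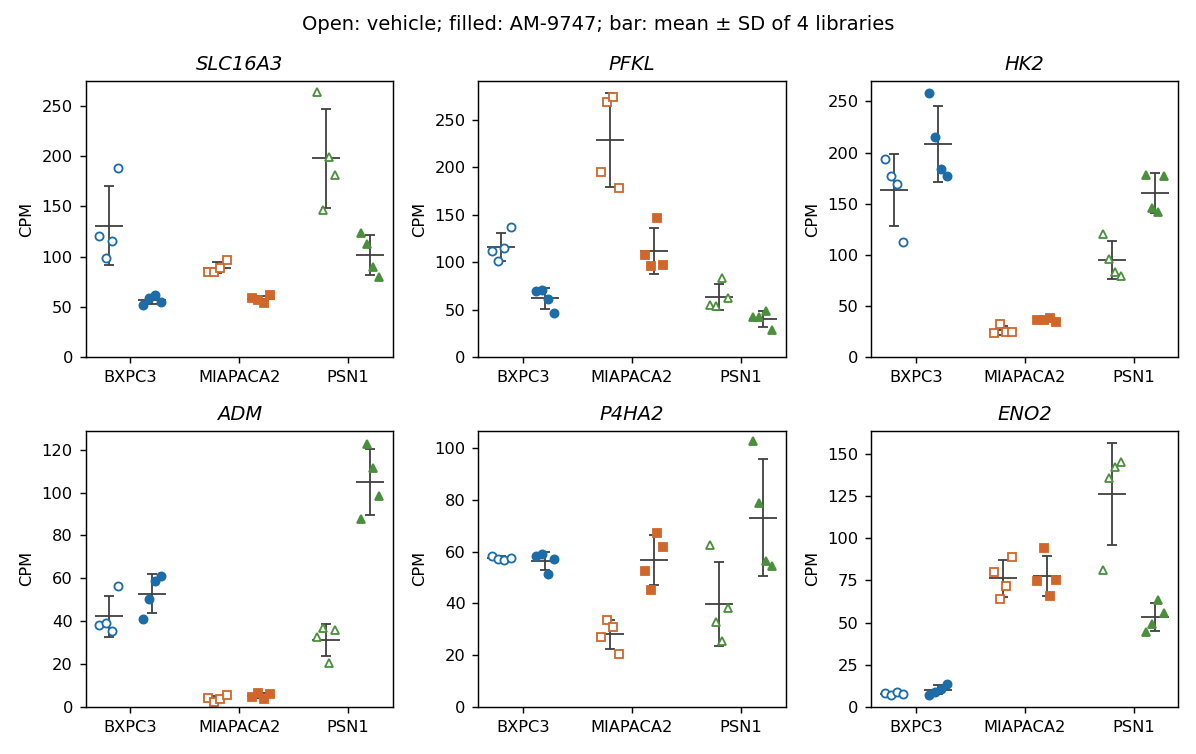
CPM in each library for SLC16A3, PFKL, HK2, ADM, P4HA2 and ENO2 (open symbols vehicle, filled AM-9747, bars mean ± SD of 4 libraries, axes from 0). SLC16A3 and PFKL are lower in all treated libraries of each line, whereas ADM and ENO2 separate widely in PSN1.

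SLC16A1 (ENSG00000155380, chromosome 1, 112911847 to 112957013, minus strand) encodes MCT1, the higher-affinity carrier that moves lactate in either direction. In MIAPACA2 it was at 222, 329, 268 and 175 CPM in vehicle and at 131, 125, 166 and 135 with AM-9747, with no overlap. BXPC3 held 119, 125, 112 and 67.8, then 154, 111, 98.1 and 80.8, and PSN1 156, 99.8, 75.1 and 85.2, then 171, 120, 87.7 and 129, with overlap in both lines. SLC16A1 fell 1.75-fold in MIAPACA2 (log2 -0.81 ± 0.18, adjusted p 0.0162) and did not pass in BXPC3 (0.06 ± 0.23, 0.86) or PSN1 (0.25 ± 0.27, 0.584); the difference between lines did not pass (0.0751). The call was lost without MIAPACA2 AM-9747 replicate 1, 2 or 4 (log2 -0.95 to -0.66, up to 0.0629), without scaling (0.0554) and in the joint fit (0.0608). In BXPC3 and PSN1 SLC16A3 thus took a smaller share of the 2 carriers per kb, 24.2 ± 5.39% against 42.4 ± 13.5% and 32.5 ± 5.09% against 53.3 ± 6.44%, without overlap in either. In MIAPACA2, where both carriers fell, the share was 19.9 ± 2.52% against 18.2 ± 4.79%. These shares rest on annotated exon lengths of 8995 bases for SLC16A3 and 5312 for SLC16A1. In CPM, without lengths, SLC16A3 had the higher mean of the 2 in BXPC3 and PSN1 vehicle.

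Lactate dehydrogenase, which interconverts pyruvate and lactate, had its 2 subunits in very different proportions across lines. LDHB (ENSG00000111716, chromosome 12, 21635342 to 21757857, minus strand), the heart-type subunit, was at 518, 505, 480 and 666 CPM in BXPC3 vehicle and at 446, 528, 514 and 540 with AM-9747. The 4 MIAPACA2 vehicle libraries held 0, 0, 1 and 0 counts and the 4 treated libraries 0; the PSN1 vehicle libraries held 0 counts and the treated libraries 1, 0, 4 and 0. A count of 0 allows up to 3 counts in that library. Per kb LDHB made up 74.3 ± 1.62% of the 2 subunits in BXPC3 vehicle. That share rests on exon lengths of 2983 bases for LDHB and 6210 for LDHA. In CPM, without lengths, LDHB also exceeded LDHA in each of these libraries. Its response was tested in BXPC3, where it did not pass (log2 -0.09 ± 0.14, adjusted p 0.645).

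LDHA (ENSG00000134333, chromosome 11, 18394388 to 18408425, plus strand), the muscle-type subunit, was at 371, 381, 372 and 425 CPM in BXPC3 vehicle and 458, 419, 414 and 379 with AM-9747. MIAPACA2 held 659, 887, 786 and 594, then 508, 469, 650 and 613, and PSN1 801, 265, 238 and 269, then 1419, 906, 473 and 652. The groups overlapped in every line, and vehicle replicate 1 of PSN1 stood far above the other vehicle libraries. LDHA passed in no line (log2 0.11 ± 0.11, -0.36 ± 0.16 and 1.11 ± 0.43; adjusted p 0.474, 0.156 and 0.125). PDK1 (ENSG00000152256, chromosome 2, 172555373 to 172608669, plus strand), a kinase that shuts pyruvate dehydrogenase, was low, at 7.60, 5.64, 5.85 and 2.70 CPM in BXPC3 vehicle and 4.94, 4.77, 4.98 and 5.45 with AM-9747. MIAPACA2 held 10.2, 12.1, 9.01 and 7.50, then 7.86, 5.78, 7.88 and 6.06, and PSN1 17.1, 8.30, 7.66 and 13.7, then 15.7, 12.9, 8.67 and 7.87. Its groups overlapped in all lines and it passed in none (adjusted p 0.796, 0.138 and 0.893).

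**Figure D4:**
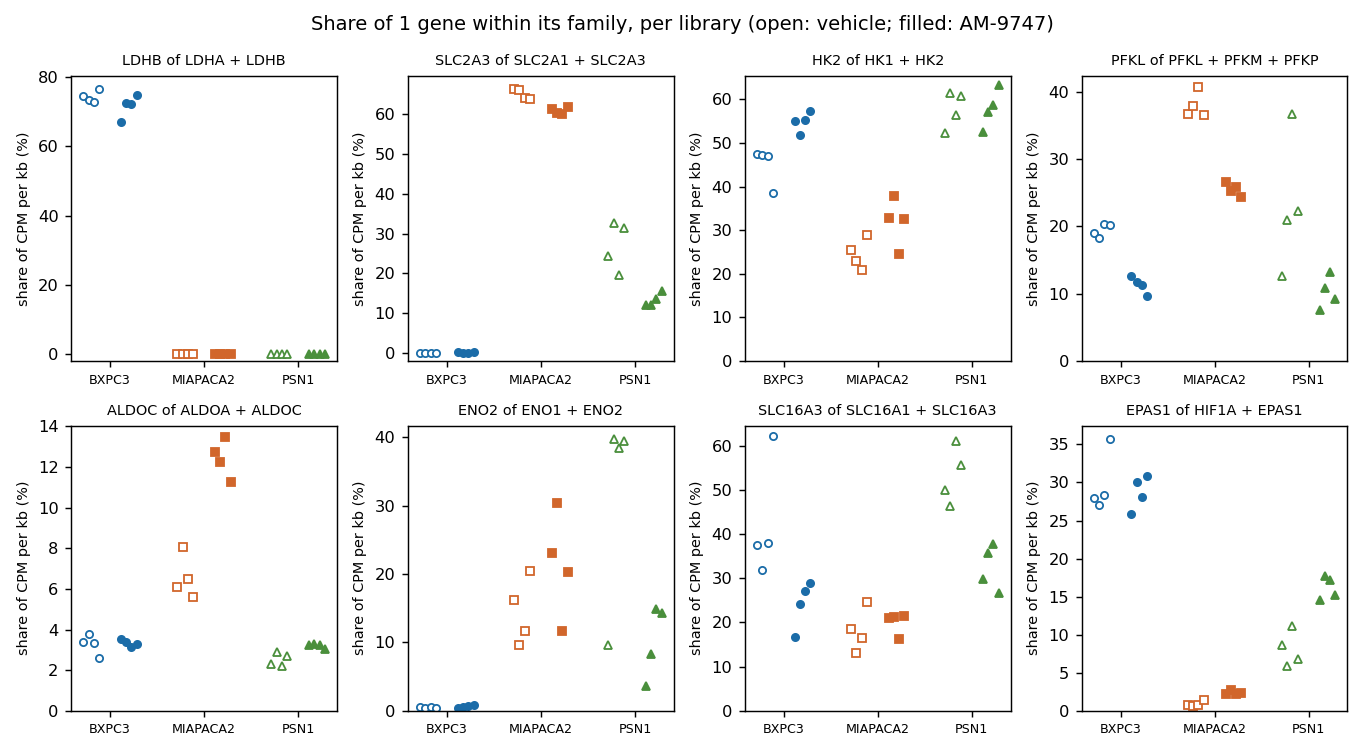
Share of 1 gene in the summed level per kb of exon of its family, in percent, for 8 families and each of the 24 libraries (open vehicle, filled AM-9747). PFKL shares are lower with AM-9747 in BXPC3 and MIAPACA2, the ALDOC share is higher in MIAPACA2, and LDHB is at or near 0 outside BXPC3.

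The carbonic anhydrases CA9 and CA12 hydrate carbon dioxide at the cell surface, and CA9 is a classic hypoxia-induced gene. CA9 (ENSG00000107159, chromosome 9, 35673856 to 35681159, plus strand) was at 36.8, 38.6, 50.6 and 31.1 CPM in PSN1 vehicle and 33.4, 46, 43.8 and 38.6 with AM-9747. BXPC3 held 0.318, 0.529, 0.515 and 0.378, then 0.135, 0.402, 0.055 and 0.203, and all 8 MIAPACA2 libraries held 0 counts. CA9 therefore stood high in PSN1 in either condition, and its response passed neither there (log2 0.00 ± 0.22, adjusted p 0.999) nor in BXPC3 (-1.13 ± 0.56, 0.161). ARHGEF39, on the other strand, covers 38.5% of the CA9 exon bases and was at 23.2 ± 5.35 CPM in BXPC3 vehicle. In MIAPACA2, where CA9 held 0 counts, ARHGEF39 was at 10.6 ± 2.12 CPM in vehicle and 8.66 ± 1.56 with AM-9747.

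CA12 (ENSG00000074410, chromosome 15, 63321378 to 63382161, minus strand) was at 83.4, 77.7, 93.8 and 80.1 CPM in PSN1 vehicle and 59.5, 51.6, 53.0 and 55.9 with AM-9747, with no overlap. BXPC3 held 1.96, 3.17, 3.28 and 3.78, then 3.19, 3.06, 1.87 and 3.13, and MIAPACA2 0.188, 0.0275, 0.172 and 0.243, then 0, 0.494, 0.103 and 0.0442. CA12 fell 1.57-fold in PSN1 (log2 -0.65 ± 0.18, adjusted p 0.0423), did not pass in BXPC3 (-0.11 ± 0.26, 0.779), and was below the count filter in MIAPACA2. The PSN1 call was lost without any PSN1 library but vehicle replicate 1 (log2 -0.68 to -0.57, up to 0.154), without scaling (-0.31, 0.364), with no filter (0.144), with the mitochondrial share as a covariate (0.055) and in the joint fit (0.252).

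HIF1A was the larger part of the 2 oxygen-regulated subunits' transcripts in all 3 lines, while the share of EPAS1 differed between them. HIF1A (ENSG00000100644, chromosome 14, 61695513 to 61748259, plus strand) was at 427, 439, 382 and 160 CPM in BXPC3 vehicle and 558, 350, 253 and 151 with AM-9747. MIAPACA2 held 66.3, 176, 126 and 51.8, then 58.1, 43.6, 102 and 56.8, and PSN1 276, 179, 77.7 and 161, then 435, 191, 142 and 143. The groups overlapped in all lines and the response passed in none (log2 -0.11 ± 0.40, -0.65 ± 0.37 and 0.35 ± 0.42; adjusted p 0.868, 0.271 and 0.626). EPAS1 (ENSG00000116016, chromosome 2, 46293667 to 46386703, plus strand), which encodes HIF-2alpha, was at 235, 230, 214 and 126 CPM in BXPC3 vehicle and 276, 213, 140 and 95.4 with AM-9747. MIAPACA2 held 0.752, 1.48, 1.27 and 1.11, then 1.84, 1.73, 3.26 and 1.95, and PSN1 37.0, 15.9, 13.7 and 16.6, then 105, 58.0, 41.8 and 36.3. Per kb EPAS1 made up 29.7 ± 4.02% of the 2 subunits in BXPC3 vehicle, 0.894 ± 0.401% in MIAPACA2 and 8.10 ± 2.29% in PSN1.

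EPAS1 rose 2.82-fold in PSN1 (log2 1.50 ± 0.39, adjusted p 0.0357), where vehicle replicate 1 overlapped the treated range, and over the mean of the lines (0.76 ± 0.21, 0.0113). MIAPACA2 gave 0.95 ± 0.35 (0.102) with no overlap, BXPC3 -0.16 ± 0.31 (0.745), and the difference between lines did not pass (0.0675). The PSN1 call was lost without any library but vehicle replicate 1 (log2 1.11 to 1.89, up to 0.108), its log2 value was 0.81 with the mitochondrial share as a covariate (0.0388), and the mean response was 0.0834 by voom. The EPAS1 share of the 2 subunits, a ratio within a library, was 16.2 ± 1.52% with AM-9747 in PSN1 (14.5 to 17.7%, above the vehicle range of 5.92 to 11.1%) and 2.36 ± 0.249% in MIAPACA2 (2.18 to 2.72%, above 0.592 to 1.48%). Of the prolyl hydroxylases, EGLN1, the main oxygen sensor, passed in no line. EGLN3 (ENSG00000129521, chromosome 14, 33924231 to 34462774, minus strand), itself a hypoxia target, was at 7.19, 6.38, 7.66 and 8.05 CPM in BXPC3 vehicle and 10.3, 10.1, 10.0 and 10.2 with AM-9747. PSN1 held 2.40, 2.27, 1.87 and 0.982, then 4.10, 3.34, 2.61 and 1.49, and MIAPACA2 at most 0.216 CPM in a library. EGLN3 rose 1.39-fold in BXPC3 (log2 0.48 ± 0.13, adjusted p 0.0222) and did not pass in PSN1 (0.57 ± 0.54, 0.519). The BXPC3 call was lost without vehicle replicate 1, 2 or 3 or AM-9747 replicate 2 or 3 (log2 0.41 to 0.52, up to 0.0676), with no filter (0.108) and in the joint fit (0.623).

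Among the other HIF targets, ADM (ENSG00000148926, chromosome 11, 10304680 to 10307397, plus strand), which encodes the vasodilator peptide adrenomedullin, had the largest change of a member in PSN1 by log2 value. PSN1 vehicle libraries held 32.8, 36.7, 20.5 and 35.7 CPM and treated libraries 87.5, 123, 112 and 98.4. BXPC3 held 38.2, 38.9, 35.3 and 56.4, then 41.1, 50.4, 58.9 and 60.9, and MIAPACA2 4.35, 2.47, 3.75 and 5.45, then 4.76, 6.32, 3.77 and 6.15. The PSN1 groups were far apart and the others overlapped. ADM rose 3.24-fold in PSN1 (log2 1.70 ± 0.24, adjusted p 0.00351), against 0.33 ± 0.19 in BXPC3 (0.215) and 0.41 ± 0.28 in MIAPACA2 (0.362), and the difference between lines passed (0.00791). The PSN1 call held in each fit without 1 library (log2 1.57 to 1.81) and in each other setting, and the mean response was 0.82 ± 0.14 (8.88e-05).

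ANGPTL4 (ENSG00000167772, chromosome 19, 8363289 to 8374373, plus strand), a secreted inhibitor of lipoprotein lipase, was at 40.3, 34.4, 60.1 and 34.4 CPM in PSN1 vehicle and 134, 88.6, 88.9 and 65.7 with AM-9747, with no overlap. BXPC3 held 4.82, 2.86, 4.28 and 6.56, then 4.27, 5.88, 5.17 and 4.37, and MIAPACA2 5.26, 4.42, 5.91 and 4.07, then 3.98, 4.34, 3.33 and 2.03. It rose 2.16-fold in PSN1 (log2 1.11 ± 0.27, adjusted p 0.0282), while BXPC3 (0.09 ± 0.25, 0.814) and MIAPACA2 (-0.50 ± 0.27, 0.249) did not pass, and the lines differed (0.0126). The PSN1 call was lost without vehicle replicate 2 or 4 or AM-9747 replicate 1, 2 or 3 (log2 0.91 to 1.35, up to 0.0917) and with the mitochondrial share as a covariate (0.0995). P4HA2 (ENSG00000072682, chromosome 5, 132191838 to 132295315, minus strand), a collagen prolyl hydroxylase subunit, was at 27.2, 33.7, 30.8 and 20.5 CPM in MIAPACA2 vehicle and 52.7, 45.2, 67.2 and 61.9 with AM-9747, with no overlap. BXPC3 held 58.5, 57.1, 56.7 and 57.7, then 58.2, 58.9, 51.5 and 57.1, and PSN1 62.6, 32.7, 25.4 and 38.1, then 103, 79.0, 56.5 and 54.3. P4HA2 rose 2.06-fold in MIAPACA2 (log2 1.04 ± 0.18, adjusted p 0.00396; held in each fit without 1 library and in each other setting) and over the mean (0.62 ± 0.13, 0.00136), with BXPC3 at -0.02 ± 0.10 (0.88) and PSN1 at 0.84 ± 0.30 (0.0962).

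KDM3A (ENSG00000115548, chromosome 2, 86440647 to 86492716, plus strand), a histone H3 lysine demethylase, was at 50.7, 52.7, 53.6 and 33.7 CPM in BXPC3 vehicle and 80.5, 77.4, 63.4 and 61.6 with AM-9747, with no overlap. MIAPACA2 held 57.6, 66.7, 55.2 and 52.6, then 72.6, 66.0, 67.4 and 71.1, and PSN1 50.2, 76.8, 26.4 and 62.9, then 71.4, 72.0, 73.8 and 88.4. It rose 1.48-fold in BXPC3 (log2 0.57 ± 0.17, adjusted p 0.0298) and over the mean (0.44 ± 0.13, 0.0131), with MIAPACA2 at 0.28 ± 0.11 (0.124) and PSN1 at 0.45 ± 0.30 (0.36). The BXPC3 call was lost without vehicle replicate 1 or AM-9747 replicate 1, 2 or 3 (log2 0.43 to 0.63, up to 0.0823), without scaling (0.0557), with no filter (0.0632) and in the joint fit (0.107).

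A further 3 members are named after their values were seen, because they were called. ANKRD37, an ankyrin-repeat gene, was low in BXPC3, at 0.589 ± 0.316 CPM in vehicle and 2.32 ± 0.912 with AM-9747, and rose there 3.95-fold (log2 1.98 ± 0.41, adjusted p 0.00595) and over the mean (0.73 ± 0.26, 0.0438). The mean call was lost in 17 of the 24 fits without 1 library, that is without any but BXPC3 vehicle replicate 4 and AM-9747 replicate 1, MIAPACA2 vehicle replicate 2 and AM-9747 replicate 1, and PSN1 vehicle replicates 2 and 3 and AM-9747 replicate 1 (adjusted p up to 0.0943) and with no filter (0.145). UFSP2, which covers 35.2% of its exon bases on the other strand, fell in BXPC3 (log2 -0.62, 0.0121), opposite to ANKRD37. BNIP3L, a mitophagy receptor, was at 70.8 ± 7.95 CPM in BXPC3 vehicle and fell to 51.8 ± 7.12 (log2 -0.45 ± 0.13, adjusted p 0.0303), a call lost without vehicle replicate 1, 2 or 3 or AM-9747 replicate 2, 3 or 4 (log2 -0.53 to -0.40, up to 0.0995), without scaling and in the joint fit. BHLHE40, a transcriptional repressor, fell in the mean response (log2 -0.36 ± 0.10, 0.0143), with PSN1 at 479 ± 141 CPM in vehicle and 267 ± 53.5 with AM-9747 (-0.89 ± 0.26, 0.0549), and that call was lost without scaling (-0.20, 0.27). NDRG1 and P4HA1 passed in no line, and BNIP3, at 4.96 ± 2.98 and 8.87 ± 2.39 CPM in PSN1, was tested there alone (log2 0.81 ± 0.43, 0.249); its 39 named pseudogenes held 16.7% of the summed level.

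In PSN1 and MIAPACA2, most members were highest in the library of their group with the lowest mitochondrial share. PSN1 vehicle replicate 1, with the lowest share of its group, had the highest level of 29 of 39 members (74.4%, against 37.3% of all genes), and PSN1 AM-9747 replicate 1, again the lowest, of 27 of 39 (69.2%, against 34.8%). In MIAPACA2 the library with the lowest share was highest for 26 of 35 members in vehicle (74.3%, against 35.3%) and 23 of 35 with AM-9747 (65.7%, against 33.8%). In BXPC3 vehicle this was not so: the library with the lowest share (replicate 1, 6.60%) was highest for 12 of 39 members (30.8%, against 21.3%) and the one with the highest share (replicate 4, 8.98%) for 18 (46.2%, against 43.3%). With AM-9747 the lowest-share BXPC3 library (replicate 1, 4.34%) was highest for 19 of 39 (48.7%, against 35.9%). Lower glycolysis summed to 7654 CPM in PSN1 vehicle replicate 1 and to 4323 to 5009 in the other vehicle libraries, and to 7899 CPM in PSN1 AM-9747 replicate 1 and to 4970 to 6065 in the other treated libraries. With the log2 mitochondrial share as a covariate, 6 of 39 members were called in PSN1 (EPAS1, ADM and PGAM1 higher, ENO2, SLC16A3 and BHLHE40 lower), 5 of them among the 8 called without it, beside 8.06% of all genes. In MIAPACA2 the same covariate gave 23 of 35 (65.7%), 8 higher and 15 lower, beside 33.6% of all genes, with the 6 calls made without it among them. The 15 included ALDOA (log2 -0.39, adjusted p 0.0021), GAPDH (-0.39, 0.000277), TPI1 (-0.52, 0.000355), ENO1 (-0.57, 0.000514), PKM (-0.52, 0.000335), LDHA (-0.33, 0.00304) and HIF1A (-0.50, 0.000607), none of which passed without it. In BXPC3 it gave 14 of 39, 5 higher and 9 lower, beside 44.8%. The part of RNA quality or cell state in these shared movements was not tested.

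**Figure D5:**
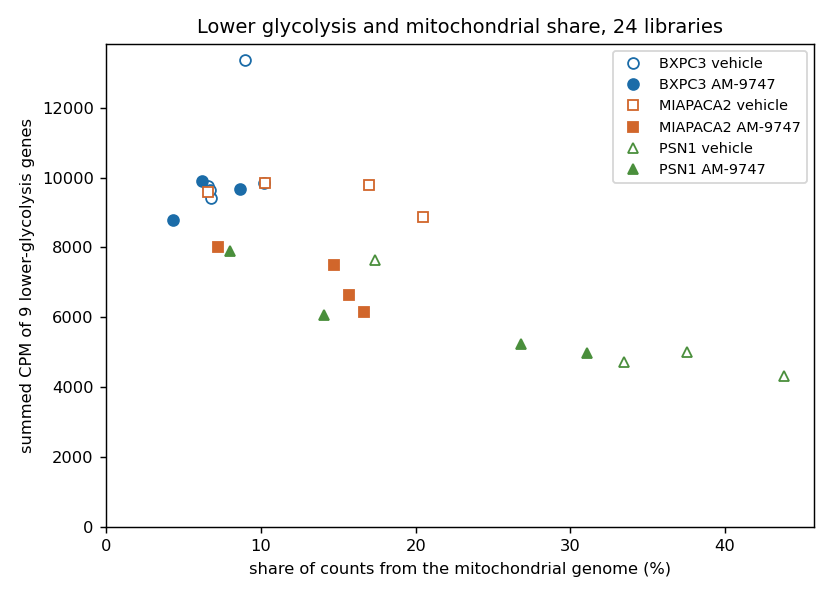
Summed CPM of the 9 lower-glycolysis genes against the share of counts from the mitochondrial genome, 1 point per library, 24 libraries in 6 groups. The MIAPACA2 treated libraries (6163 to 8007) lie below the vehicle libraries (8884 to 9839) at similar shares, while PSN1 libraries spread along the share axis.

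Neighbouring genes of the pathway were taken from 6 lists, whose counts are read against the 29.2% of all genes called in BXPC3, 13.6% in MIAPACA2 and 10.7% in PSN1. Of 11 partners of oxygen sensing, BXPC3 had 3 of 10 tested called (ARNT2 and ELOC higher, HIF1AN lower), MIAPACA2 2 of 9 (EGLN2 and CITED2 lower) and PSN1 1 of 11 (CITED2 higher), that is 30, 22.2 and 9.09%, close to all genes in BXPC3 and PSN1. HIF1AN, which blocks HIF activity by hydroxylating an asparagine, was at 95.5 ± 11.9 CPM in BXPC3 vehicle and fell to 52.8 ± 8.0 (log2 -0.85 ± 0.14, adjusted p 0.00175), and ARNT2, a partner of the alpha subunits, rose there from 1.33 ± 0.416 to 5.71 ± 0.384 (2.10 ± 0.23, 0.000193). ELOC, a subunit of the VHL ligase, rose over the 3 lines' mean (0.67 ± 0.15, 0.00191). HIF3A was below the count filter in BXPC3 and MIAPACA2 and did not pass in PSN1.

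Of 18 further hypoxia-induced genes, 3 of 18 were called in BXPC3, all lower, 4 of 16 in MIAPACA2, 3 of them lower, and 4 of 18 in PSN1, all lower. These are 16.7, 25 and 22.2%, with 29.2, 13.6 and 10.7% over all genes. DDIT4, an inhibitor of mTORC1 signalling, fell in every line. BXPC3 had vehicle and treated means of 358 ± 24.4 and 174 ± 6.46 CPM (log2 -1.03 ± 0.10, adjusted p 0.000133), MIAPACA2 of 189 ± 17.3 and 112 ± 6.28 (-0.73 ± 0.11, 0.00236), and PSN1 of 315 ± 48.0 and 105 ± 25.7 (-1.64 ± 0.24, 0.00355). MIR210HG, the host transcript of a hypoxia-induced microRNA, fell in BXPC3 (1.62 ± 0.534 to 0.622 ± 0.259 CPM; -1.37 ± 0.40, 0.0264) and PSN1 (31.7 ± 12.7 to 7.54 ± 3.98; -2.12 ± 0.46, 0.0185), with MIAPACA2 at -1.13 ± 0.37 (0.0703). VEGFA, the angiogenic growth factor, named after its values were seen, fell in PSN1 from 262 ± 81.3 to 82.1 ± 5.97 CPM (-1.73 ± 0.26, 0.00434), in the same libraries in which ADM and ANGPTL4 rose. PPP1R3C, a glycogen-targeting phosphatase subunit, did not pass in BXPC3 or PSN1 and was below the count filter in MIAPACA2.

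Among 18 other isoforms of glycolytic enzymes 1 of 7 tested was called in BXPC3, 2 of 10 in MIAPACA2 and 1 of 7 in PSN1, all higher (14.3, 20.0 and 14.3%, beside 29.2, 13.6 and 10.7% of all genes). HKDC1, a hexokinase-like gene, rose in MIAPACA2 and PSN1, the lines in which HK2 also rose. Its MIAPACA2 means were 0.723 ± 0.398 CPM in vehicle and 2.22 ± 0.533 with the inhibitor (log2 1.64 ± 0.45, adjusted p 0.0353). In PSN1 it went from 12.8 ± 2.85 to 27.4 ± 4.53 (1.05 ± 0.26, 0.0299). SLC2A4 and PFKFB1 stayed at or below a group mean of 1.48 CPM. SLC2A4 was called lower in the mean response of the joint fit (-1.74 ± 0.55, 0.0228), though below the count filter in BXPC3 and PSN1. Of 13 genes for pyruvate entry into mitochondria, 4 were called in BXPC3 (PDP1 and PC higher, PDK2 and PDK3 lower), 0 in MIAPACA2 by edgeR (2 by DESeq2, and 3 at an unadjusted p below 0.05) and 1 in PSN1, which are 30.8, 0 and 7.69% of the list. That 1 was MPC2, a subunit of the mitochondrial pyruvate carrier, which rose from 13.9 ± 5.35 to 39.4 ± 7.47 CPM (1.47 ± 0.28, 0.0107). PDP1, the phosphatase that reactivates pyruvate dehydrogenase, rose in BXPC3 from 65.3 ± 21.9 to 121 ± 20.2 CPM (0.89 ± 0.25, 0.0237), and the opposing kinase PDK2 fell there (-0.66 ± 0.18, 0.0196).

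The pentose phosphate pathway, which branches off glucose 6-phosphate, had 4 of 7 genes called in BXPC3 and 3 of 7 in MIAPACA2, with RPE and TALDO1 among those lower in both, and 2 of 7 in PSN1 (RPIA higher, PGLS lower). These are 57.1, 42.9 and 28.6%, beside 29.2, 13.6 and 10.7% of all genes. TALDO1, transaldolase, fell in BXPC3 (log2 -0.93 ± 0.17, adjusted p 0.00332) and MIAPACA2 (-0.82 ± 0.12, 0.0021), and RPIA, ribose phosphate isomerase, rose in BXPC3 (0.45 ± 0.12, 0.0196) and PSN1 (1.01 ± 0.22, 0.0182). Of 8 genes for gluconeogenesis and the glycerol side branch, 3 of 5 tested fell in BXPC3, 3 of 5 in MIAPACA2 and 3 of 7 in PSN1 (60.0, 60.0 and 42.9%, against the same background), and none was called higher in a line's own fit. PCK2, mitochondrial phosphoenolpyruvate carboxykinase and a target of the amino acid stress response, fell in every line. BXPC3 had vehicle and treated means of 94.1 ± 10.9 and 11.0 ± 2.59 CPM (-3.10 ± 0.19, 1.65e-05), MIAPACA2 of 54.7 ± 5.50 and 28.6 ± 3.86 (-0.91 ± 0.14, 0.00222), and PSN1 of 65.4 ± 20.3 and 5.65 ± 0.617 (-3.57 ± 0.26, 0.000176). PCK1, the cytosolic form, was at 17.3 ± 10.3 CPM in PSN1 vehicle and 4.80 ± 0.931 with AM-9747 (-1.88 ± 0.41, 0.0183) and near 0 in the other lines, and FBP1, fructose bisphosphatase, fell in BXPC3 from 16.6 ± 5.90 to 7.02 ± 1.38 CPM (-1.24 ± 0.24, 0.00456). Both were nevertheless called higher in the mean response of the joint fit (PCK1 2.11 ± 0.63, 0.0193; FBP1 1.57 ± 0.49, 0.0243), in which PCK1 had 0 counts in every BXPC3 vehicle library and FBP1 in every MIAPACA2 vehicle library. A log2 value fitted with such a group, and the SE taken from it, depend on the prior count, which the p-value does not use. These lists were chosen with earlier results in view, so their counts describe these libraries.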

How the data were processed

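RNA from 24 libraries (3 lines, vehicle or AM-9747, 4 libraries each) was sequenced from poly(A) libraries of a strand-marking kit, per the labels' protocols. The deposited values are raw counts per gene; per the submitters' processing notes the tools were fastp 0.19.8, HISAT2 2.2.0, R 4.0.2 and DESeq2 1.34.0 with GRCh38. The counter, annotation release and strand setting were not given in the sources used here. Gene positions come from GENCODE 29, matched by identifier for 56271 of 60366 entries. Values per kb divide by the union of all annotated exons of a gene, which can be longer than the transcripts expressed. The size of a share within a family depends on these lengths. From the counts, each line was fitted on its own (8 libraries) with edgeR 4.0.16 in R 4.3.3: TMM scaling, edgeR's low-count filter by group, quasi-likelihood test, Benjamini-Hochberg adjustment over all genes tested, threshold 0.05. The mean response and the difference between lines came from a joint fit of 24 libraries, and vehicle pairs from fits of 8. The joint fit shares its spread over the lines. Its common coefficient of variation was 46.4%, against 26.6, 32.1 and 55.1% in the own fits of BXPC3, MIAPACA2 and PSN1. It thus understates the spread of PSN1. Alternatives were DESeq2 1.42.0, RLE scaling, no scaling, no filter, voom with quality weights (limma 3.58.1), a replicate block, the log2 mitochondrial share as covariate, the joint fit and leaving out each library. The scripts were tested on simulated data. Library values are given for SLC2A1, HK2, LDHA, LDHB, PKM, PDK1, CA9, EGLN3, HIF1A and EPAS1 and for any other member called in a line's own fit averaging at least 5 CPM across that line's 8 libraries and no overlap of its groups. Of each pathway list the 3 genes with the largest absolute mean response are named, except 1 gene that is not reported here. The members, lists and rules were chosen with earlier results of these data known.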

Additional observations from a re-analysis of the deposited data

Results flagged for a closer look

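In 13 of 108 groups of 4 libraries tested (named members by group), 1 library stood apart from the other 3 by Dixon's criterion at the 95% level, which chance passes in about 1 of 20 groups. PSN1 vehicle replicate 1, the library of its group with the lowest mitochondrial share (17.4%), was the library for 4 of them: SLC2A1 at 69.2 CPM (next 37.0), LDHA at 801 (next 269), EPAS1 at 37.0 (next 16.6) and ENO2, the lowest, at 81.1 (next 136). PSN1 AM-9747 replicate 1, with a share of 7.98%, was high for PKM at 1905 CPM (next 1426) and HIF1A at 435 (next 191), and PSN1 AM-9747 replicate 4 for KDM3A at 88.4 (next 73.8). BXPC3 vehicle replicate 4 was high for PKM at 2619 CPM (next 2167) and ALDOC at 36.2 (next 32.2) and low for KDM3A at 33.7 (next 50.7). The others were HK2 at 32.9 CPM in MIAPACA2 vehicle replicate 2 (next 24.7), EPAS1 at 3.26 in MIAPACA2 AM-9747 replicate 3 (next 1.95) and CA12 at 1.87 in BXPC3 AM-9747 replicate 3 (next 3.06). The part of the mitochondrial share in these values was not tested.

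The response to AM-9747 differed between the 3 lines, by the test of the difference itself (edgeR's quasi-likelihood F test over 22883 genes, Benjamini-Hochberg adjusted), for ENO2 (adjusted p 0.00132), ADM (0.00791), ANGPTL4 (0.0126) and PGAM1 (0.0212). In each of them PSN1 was the line with an adjusted p below 0.05 in its own fit. The test of the difference uses a spread shared over the lines, which understates that of PSN1.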

How the results depend on the processing

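Of the 20 member calls in single lines, DESeq2, RLE scaling and voom kept 20, the replicate block 19, the mitochondrial share as covariate 17, no filter 15, no scaling 14 and the joint fit 12, and 7 held in all 8 fits without 1 library; none of the 20 changed sign in these settings. In BXPC3 the 6 members called became 12 with voom, 14 with the mitochondrial share and 3 in the joint fit (3 to 7 without 1 library), and the 5158 genes called became 9598, 7908 and 2414 (3707 to 6763). In MIAPACA2 the 6 became 11 with DESeq2, 15 with voom, 23 with the mitochondrial share and 2 in the joint fit (3 to 11 without 1 library), and the 2456 genes 3708, 5192, 6075 and 1151 (1142 to 3243). In PSN1 the 8 became 5 without scaling, 19 with voom and 17 in the joint fit (1 to 19 without 1 library), and the 1954 genes became 3652 with DESeq2, 5485 with voom and 5762 in the joint fit (530 to 4370). The 4 members whose response differed by line became 15 with DESeq2, 9 with RLE, 8 with no filter, 26 with voom and 11 with the mitochondrial share (3 to 22 without 1 library), and the 2764 genes 4871 with DESeq2 and 9249 with voom (1994 to 6105). The counts of the mean response and of the vehicle pairs stayed within 1.5 times in every setting run. Leaving out scaling moved the median of all genes to 0.15 in MIAPACA2, 0.37 in PSN1 and 0.24 over the mean, and to 0.18, -0.33 and -0.46 in the vehicle pairs; calls then split 1922 higher and 637 lower in MIAPACA2, 1212 and 541 in PSN1, 4262 and 1578 over the mean, and 6666 and 5383, 4349 and 6199, and 3257 and 5670 in the vehicle pairs. The cause of these differences was not tested.

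The labels give a replicate number and do not say whether same-numbered libraries were paired. Same-numbered libraries of a line correlated in their deviations from the group means at 0.68, 0.25, -0.31 and 0.71 for BXPC3. The values were 0.23, -0.58, 0.56 and 0.19 for MIAPACA2 and 0.71, -0.30, 0.35 and 0.0094 for PSN1 (12060 genes). Some libraries correlated best with their own number and others did not, so these values do not settle whether there was a pairing. With the number as a replicate block, 7 members were called in BXPC3, 5 in MIAPACA2 and 19 in PSN1, where 3355 genes were called; the response differed by line for 20 members and 4330 genes.

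LDHB, CA9, CA12, EGLN3 and BNIP3 had too few counts for a test of their response in at least 1 line. In MIAPACA2 5 members, and in BXPC3 and PSN1 1 each, were below the count filter.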
